A study of Mus musculus with 4 samples.

Results

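The genes described are the 48 listed parts of the machinery that copies DNA and of the enzymes that supply its nucleotides. They were taken by symbol: a gene was represented by a probe set whose only gene symbol in the platform annotation was a listed one, and where several qualified by the probe set with the highest mean over the arrays. This gave values for 47 of the 48 genes, out of 18194 genes tested. Chaf1a had no probe set that met this rule and has no value here.

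The arrays measured RNA from bone marrow cells of C57BL/6 (B6) mice aged 8 weeks, sorted for absence of lineage markers and presence of c-Kit and Sca-1. The labels name these cells HSCs. There were 2 arrays of WT mice and 2 of Alox15-/- mice, which lack the gene for arachidonate 15-lipoxygenase by their label. The labels name biological replicates but give no animals or pools, so p-values measure only how these arrays varied, in part perhaps for technical reasons. The labels do not say where the Alox15 gene was altered. All values are on a log2 scale, as deposited, and every difference is the arrays labelled Alox15-/- minus WT, so a difference of 1 is a doubling.

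Alox15 itself went against its label. The WT pair of arrays stood at 4.63 and 4.35 and the pair labelled Alox15-/- at 10.68 and 10.75 (limma adjusted p = 0.00133, n = 2 each). The WT values lay below the highest of 27 probe sets for bacterial transcripts (4.95 to 5.17 over the 4 arrays), which serves here as a floor. Against the mean floor of the WT arrays, 4.97, Alox15 was at least 53.5-fold higher in the pair labelled Alox15-/-. The measured Alox15 difference of 6.22 stayed between 6.08 and 6.36 when any 1 array was left out. With any 1 array left out no gene passed. Where this probe set lies relative to the altered part of the gene was not known. Whether the labels were exchanged cannot be told from these values; an exchange would turn the sign of every difference below and swap each higher count with its lower one. Directions are given for the pair labelled Alox15-/- throughout. Of the markers of the sort, Kit stood at 10.63 and 10.48 in WT, then 10.34 and 10.23 in the pair labelled Alox15-/-. Ly6a, the gene of Sca-1, had no probe set of its own in the annotation used. Of 6 measured lineage genes out of 9 listed, Cd3e of T cells and Ms4a1 of B cells were under that floor on each array. Cd4, Cd8a, Cd79a and Itgam were above it on each, as were 13009 of all 18194 genes tested. Of the 6, 4 had a difference above 0 and 2 below, among the latter Itgam of myeloid cells at -0.51.

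DNA replication is prepared in G1 phase, when the origin recognition complex, Cdc6 and Cdt1 load the MCM helicase onto origins, a step called licensing that geminin blocks later in the cycle. In S phase the Cdc7-Dbf4 kinase, Mcm10, Cdc45 and the GINS complex turn the loaded helicase on. Primase, polymerases, the PCNA clamp and its loader then copy the strands from deoxynucleotides that ribonucleotide reductase and thymidylate synthase help to make. Many of these genes are targets of the E2F transcription factors and are expressed most in cycling cells, while most long-term stem cells in the marrow are quiescent. In sorted bulk samples such as these, fewer cells in S phase and less RNA of these genes per cell cannot be told apart.

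Promoter sequences show what many of the genes share besides function. RefSeq windows of 300 bases, 250 before and 50 after an annotated start (GRCm38.p6), were found for 40 of the 48 genes by symbol. They were searched on both strands for TTTGGCGC, TTTCGCGC, TTTCCCGC and TTTGCCGC, which spell the classical E2F motif; matches may overlap. Of the 40 genes, 15 held at least 1 match in a window (37.5%, exact 95% binomial interval 22.7 to 54.2%), against 550 of the 14453 tested genes with a window (3.81%). The CCAAT motif, bound by NF-Y and searched in the same way, was in 25 of the 40 (62.5%, interval 45.8 to 77.3%), against 42.0% of tested genes. In the shorter window from 150 bases before the start, the E2F-type share was 35.0% against 2.78%. A match is a string of letters and was not tested for binding.

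The bases before the start are shown for the 4 genes with the largest differences, in either direction, among those with a match upstream of the start, and for Mcm6, added because its window held the most matches. Capitals mark E2F-type matches, and each run is given 5′ to 3′ on the strand of the gene. They lie directly upstream of an annotated start at chr4:108579204-108579453 (plus strand) for Orc1, chrX:93632156-93632405 (minus strand) for Pola1, chr17:56304063-56304312 (plus strand, the second of its starts) for Uhrf1, chr11:98907901-98908150 (plus strand) for Cdc6 and chr1:128359706-128359955 (minus strand) for Mcm6.
Orc1: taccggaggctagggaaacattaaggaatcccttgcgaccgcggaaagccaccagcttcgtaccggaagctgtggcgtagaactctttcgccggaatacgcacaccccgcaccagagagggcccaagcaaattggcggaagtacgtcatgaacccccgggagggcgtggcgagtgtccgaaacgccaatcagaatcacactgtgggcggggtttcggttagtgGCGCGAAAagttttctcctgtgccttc
Pola1: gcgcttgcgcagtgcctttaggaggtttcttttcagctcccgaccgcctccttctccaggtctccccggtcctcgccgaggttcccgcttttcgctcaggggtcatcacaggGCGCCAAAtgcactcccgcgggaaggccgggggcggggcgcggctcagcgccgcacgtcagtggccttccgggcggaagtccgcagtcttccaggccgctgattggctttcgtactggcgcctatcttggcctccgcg
Uhrf1: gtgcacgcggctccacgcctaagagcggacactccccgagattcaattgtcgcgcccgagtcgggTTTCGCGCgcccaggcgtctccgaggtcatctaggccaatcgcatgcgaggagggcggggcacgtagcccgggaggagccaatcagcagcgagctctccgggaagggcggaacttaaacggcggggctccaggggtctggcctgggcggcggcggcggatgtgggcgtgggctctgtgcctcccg
Cdc6: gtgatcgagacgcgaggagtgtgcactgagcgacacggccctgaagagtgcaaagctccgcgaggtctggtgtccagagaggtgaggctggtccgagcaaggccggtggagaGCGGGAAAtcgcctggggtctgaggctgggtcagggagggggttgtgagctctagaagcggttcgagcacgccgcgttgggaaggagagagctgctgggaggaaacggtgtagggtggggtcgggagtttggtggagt
Mcm6: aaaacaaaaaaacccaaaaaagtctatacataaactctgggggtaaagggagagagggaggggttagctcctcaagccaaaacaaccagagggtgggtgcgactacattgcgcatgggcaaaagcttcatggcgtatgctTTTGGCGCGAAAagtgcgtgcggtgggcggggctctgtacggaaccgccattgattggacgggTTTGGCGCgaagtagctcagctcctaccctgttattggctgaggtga

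The Mcm6 run carries TTTGGCGC and, overlapping it on the opposite strand, TTTCGCGC, and a further TTTGGCGC nearer the start, which begins 47 bases before it. In Orc1 the match begins 27 bases before the start. Mcm2 and Rrm2, which had the largest positive differences between the groups, held none of these letters in their windows. The 15 genes with a match had a median difference of 0.039, with 10 of 15 above 0, and the 24 measured genes with a window but no match had 0.11, with 19 of 24 above 0. The difference between these medians was not tested.

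None of the 47 genes passed limma's threshold (adjusted p from 0.575 to 0.993), and Alox15 was the only gene of all those tested that did. At this threshold 0.00550% of tested genes were called higher and 0% lower. At an unadjusted p under 0.05, 3 of the 47 were higher (Mcm2, Rrm2 and Pola1) and 1 was lower (Orc1), against 4.20% and 3.57% of all genes tested. Both arrays labelled Alox15-/- lay above both WT arrays for 19 of the 47 genes (40.4%), against 21.4% of all genes, and both lay below for 4 (8.51%), against 17.1%. The median difference over the 47 was 0.11, beside 0.019 over all genes, and 34 were above 0 and 13 below (72.3% above, 53.8% over all genes). Among the 13009 genes that read above the bacterial controls on all arrays, as all 47 did, the median was also 0.019 and 22.4% had groups apart and higher. The median was 0.059 without WT replicate 2. The count of higher genes at an unadjusted p under 0.05 was 0 when WT replicate 2 was left out and 1 when Alox15-/- replicate 1 was, and the count of lower genes was 0 without WT replicate 1, WT replicate 2 or Alox15-/- replicate 1. Leaving out each of the 4 arrays in turn, 29 of the 47 genes kept their sign (23 higher and 6 lower) and 18 changed it at least once.

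**Figure D1:**
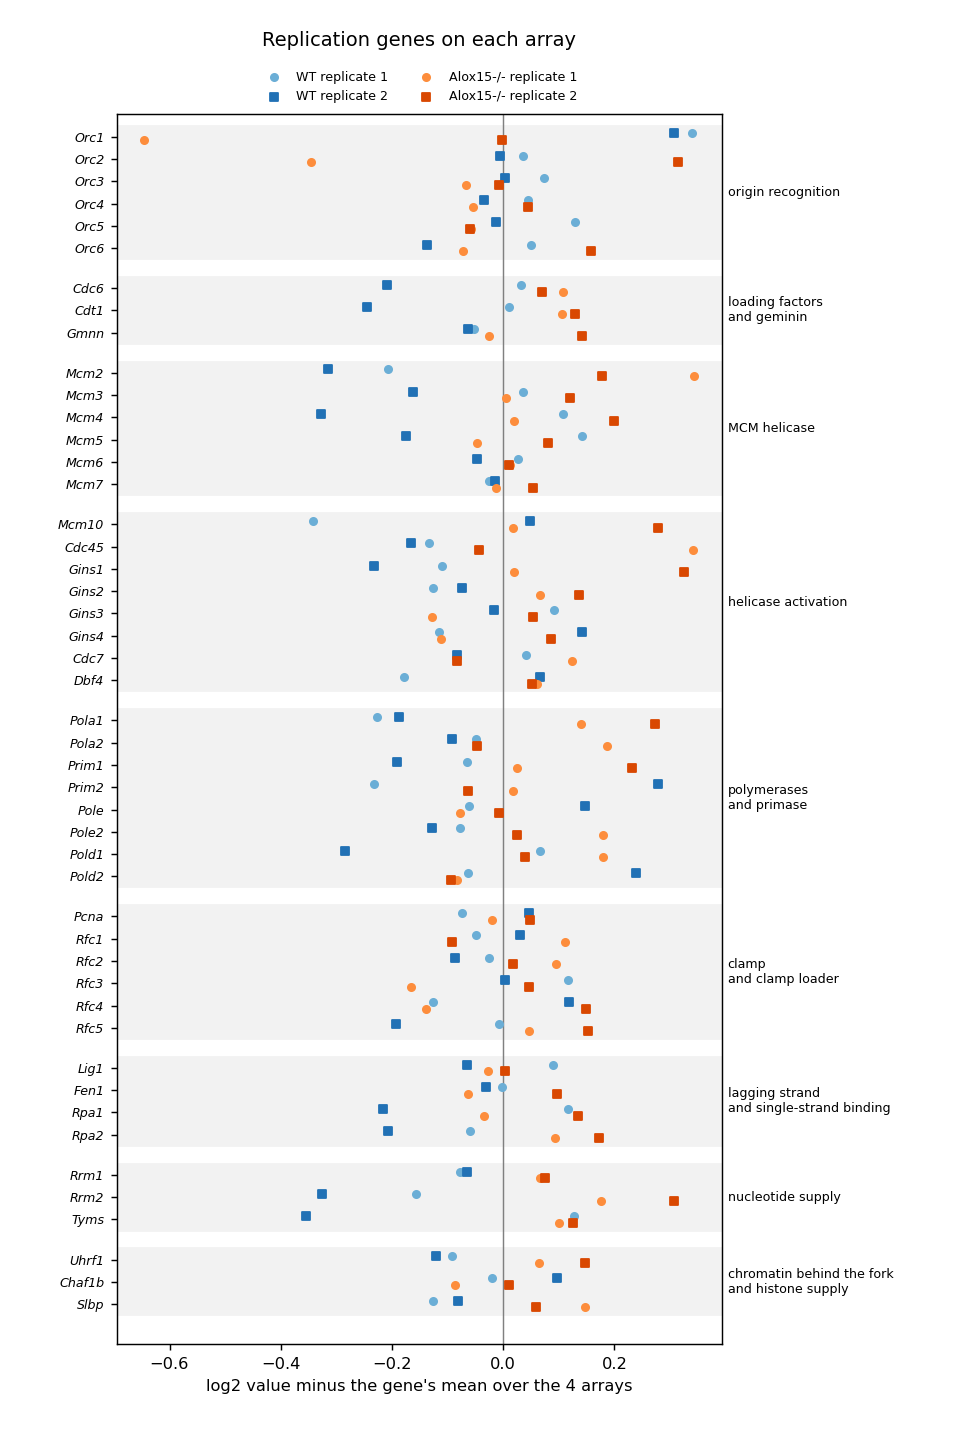
Each point is 1 array's log2 value of a gene minus that gene's mean over the 4 arrays (horizontal axis), for the 47 genes grouped by role (vertical axis); blue is WT, orange is the arrays labelled Alox15-/-. For Mcm2, Rrm2 and Pola1 the orange points all lie to the right of the blue ones, for Orc1 to the left, and for 24 genes the groups overlap.

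Of the origin recognition genes, whose products mark origins, 5 of 6 lay below 0. Below, levels are given with the WT pair first. Orc1, the largest subunit, stood at 8.93 and 8.90 in WT, then 7.95 and 8.59 in the pair labelled Alox15-/-. Both of the latter were lower, but they differed from each other by more than the nearer of them differed from WT. The difference was -0.65 ± 0.23 (SE, limma adjusted p = 0.630), and it ran from -0.97 without Alox15-/- replicate 2 to -0.33 without Alox15-/- replicate 1. A second, dimmer Orc1 probe set gave 0.22. Orc2 stood at 9.28 and 9.24, then 8.90 and 9.56, so that the pair labelled Alox15-/- bracketed WT, at -0.030 ± 0.24. Its other probe sets gave -0.10 and 0.17. Orc3 stood at 10.16 and 10.09, then 10.02 and 10.08, a difference of -0.075 ± 0.13, and its other probe sets gave -0.38 and 0.17. Orc5 stood at 7.75 and 7.61, then 7.56 and 7.56, a difference of -0.12 ± 0.13. For both genes the groups were apart, by less than the WT arrays differed from each other. Orc4 stood at 9.31 and 9.23, then 9.21 and 9.31, at -0.010 ± 0.13, with other probe sets from -0.25 to 0.44. Orc4 and Orc6, the latter at 0.086 ± 0.15, overlapped.

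The loading factors were each a little higher, with groups apart. Cdt1, which brings the helicase to origins, stood at 11.22 and 10.97, then 11.32 and 11.34, a difference of 0.23 ± 0.15 (0.32 at its second probe set above the floor). Cdc6, the ATPase that works with it, stood at 9.77 and 9.53, then 9.84 and 9.81, a difference of 0.18 ± 0.15. Gmnn, the gene of geminin, which holds Cdt1 in check, stood at 10.67 and 10.66, then 10.69 and 10.86, at 0.12 ± 0.14. For all 3 the gap between the groups was narrower than the spread within the more variable group. Without WT replicate 2, the lower WT array for both, Cdt1 was at 0.11 and Cdc6 at 0.056.

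The 6 genes of the MCM helicase ring, Mcm2 to Mcm7, were all above 0 at the probe set used, with a median of 0.083. Mcm2 stood at 8.85 and 8.74, then 9.40 and 9.24, so that the groups were apart by more than either spread. Its difference of 0.52 ± 0.14 was the largest positive one of the 47 genes, a 1.44-fold higher level, with limma adjusted p = 0.575, and it ran from 0.44 to 0.60 without 1 array. The second Mcm2 probe set gave 0.31. Mcm4 stood at 11.12 and 10.69, then 11.03 and 11.21, a difference of 0.22 ± 0.19, and Mcm3 at 11.23 and 11.04, then 11.20 and 11.32, a difference of 0.13 ± 0.14. In both, WT replicate 1 read above Alox15-/- replicate 1, and without WT replicate 2 the differences were 0.0025 and 0.028. Mcm7 stood at 12.86 and 12.87, then 12.87 and 12.93, at 0.039 ± 0.13, with the groups barely apart. Mcm5 stood at 11.85 and 11.53, then 11.66 and 11.79, at 0.034 ± 0.16. Mcm6 stood at 12.52 and 12.44, then 12.50 and 12.50, at 0.022 ± 0.13. Mcm5 and Mcm6 overlapped; leaving out WT replicate 2 put Mcm5 at -0.12 and Mcm6 at -0.015, and leaving out Alox15-/- replicate 2 put Mcm5 at -0.029.

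Other probe sets of the same subunits gave differences of the same sign and of other sizes. For Mcm5 they gave 0.39 and 0.76, the latter from 6.38 and 6.41, then 7.14 and 7.16, with the groups clearly apart. For Mcm7 they gave 0.035 to 0.34, for Mcm3 0.14 to 0.32, for Mcm4 0.066 and for Mcm6, above the floor, 0.15. All 19 probe sets of the 6 genes were above 0, from 0.022 to 0.76, and for 11 of them (57.9%) the groups were apart and higher; 1 of the 19 was below the floor. Of all 34958 probe sets with 1 symbol, 53.2% were above 0 and 21.3% were apart and higher. Probe sets of a gene read the same samples and are not replicates.

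Among the factors that turn the helicase on, Gins1, a subunit of the GINS complex, stood at 10.13 and 10.01, then 10.27 and 10.57. Both arrays labelled Alox15-/- lay above WT, at 0.34 ± 0.16 (limma adjusted p = 0.678; 0.19 to 0.50 without 1 array). Cdc45, which travels with the helicase, stood at 8.01 and 7.98, then 8.49 and 8.10. Alox15-/- replicate 1 was the high array, and the difference of 0.30 ± 0.17 was 0.11 without it; the second probe set gave 0.054. Mcm10, which helps to activate the helicase, stood at 8.66 and 9.05, then 9.02 and 9.28, overlapping, at 0.29 ± 0.19 (0.10 without WT replicate 1). Other Mcm10 probe sets gave 0.11 and 0.044. Gins2 was at 0.20 ± 0.13 with groups apart, whereas its partners Gins3 and Gins4 were at -0.075 ± 0.14 and -0.026 ± 0.16 and overlapped. Cdc7, the kinase, stood at 10.85 and 10.73, then 10.94 and 10.73, at 0.041 ± 0.15 (-0.094 at a dimmer probe set). Its activator Dbf4 was at 0.11 ± 0.15, and both overlapped.

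Polymerase alpha and primase together lay the first primer on each strand. Pola1, the catalytic subunit, stood at 8.77 and 8.81, then 9.13 and 9.27, a difference of 0.41 ± 0.13, a 1.33-fold higher level with groups apart by more than either spread (limma adjusted p = 0.618; 0.35 to 0.48 without 1 array). A much dimmer Pola1 probe set stood at 5.37 and 6.43, then 5.64 and 5.25, overlapping, at -0.46. Its partner Pola2 stood at 8.39 and 8.35, then 8.63 and 8.39, at 0.14 ± 0.14 with groups barely apart (-0.073 at another probe set above the floor). Prim1, the catalytic primase subunit, stood at 10.44 and 10.32, then 10.53 and 10.74, at 0.26 ± 0.15 with groups apart. Prim2, the other subunit, stood at 8.27 and 8.78, then 8.52 and 8.44, at -0.045 ± 0.20, and a dimmer probe set gave 0.17. The WT arrays of Prim2 enclosed the others.

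Of the main polymerases, Pole, the catalytic subunit of epsilon, stood at 8.73 and 8.93, then 8.71 and 8.78, overlapping, at -0.086 ± 0.14. Its accessory subunit Pole2 was at 0.21 ± 0.13 with groups apart. Pold1, the catalytic subunit of delta, was at 0.22 ± 0.17 and overlapped. Its accessory subunit Pold2 stood at 7.77 and 8.07, then 7.75 and 7.74, at -0.18 ± 0.16 (limma adjusted p = 0.816). Both arrays labelled Alox15-/- lay below WT, close to WT replicate 1, and without WT replicate 2 the difference was -0.025.

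Pcna, the sliding clamp and a common marker of proliferating cells, stood at 12.31 and 12.43, then 12.37 and 12.44, a difference of 0.029 ± 0.13 with overlapping groups. Of the 5 genes of its loader, Rfc5 at 0.20 ± 0.14 and Rfc2 at 0.11 ± 0.13 had groups apart. Rfc1 stood at 10.53 and 10.61, then 10.69 and 10.49, at 0.019 ± 0.14, and its other probe sets gave 0.035 and -0.19. Rfc3 stood at 8.37 and 8.26, then 8.09 and 8.30, at -0.12 ± 0.14, and a dimmer probe set gave 0.20. Rfc4 was at 0.0088 ± 0.17 and, like these, overlapped. At its dimmer probe set Rfc4 stood at 8.54 and 8.47, then 9.05 and 8.94, a difference of 0.49 with the groups clearly apart.

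On the lagging strand, Fen1, which trims primers, was at 0.033 ± 0.13 and Lig1, which seals nicks, at -0.025 ± 0.13, both overlapping. Of the proteins that coat single strands, Rpa2 stood at 10.75 and 10.60, then 10.90 and 10.98, at 0.27 ± 0.14 with groups apart (0.71 at a dimmer probe set). Rpa1 was at 0.10 ± 0.17 and overlapped, while a dimmer probe set was at 0.27 with groups apart.

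All 3 nucleotide genes were above 0. Rrm2, the cell-cycle-regulated subunit of ribonucleotide reductase, stood at 10.91 and 10.74, then 11.24 and 11.37. The groups were apart by more than the spread within either. The difference of 0.48 ± 0.14, a 1.40-fold higher level, had limma adjusted p = 0.583, and it ran from 0.40 to 0.57 without 1 array. Its other probe sets gave 0.54 and 0.41, with the groups apart at both. Rrm1, the large subunit, stood at 12.13 and 12.15, then 12.28 and 12.29, at 0.14 ± 0.13 (limma adjusted p = 0.816). Its replicates were close, and the difference stayed between 0.14 and 0.15 without 1 array. Tyms, which makes thymidylate, stood at 7.91 and 7.43, then 7.88 and 7.91, overlapping, at 0.23 ± 0.19. WT replicate 2 was the low array, and without it the difference was -0.015. Other Tyms probe sets gave -0.28, 0.0063 and 0.085, and a probe set shared with its pseudogene was left out.

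Of the genes that restore chromatin behind the fork, Uhrf1, which brings the maintenance DNA methyltransferase to new DNA, was at 0.21 ± 0.13. A dimmer Uhrf1 probe set overlapped, at 0.041. Slbp, which binds histone messenger RNA, stood at 11.64 and 11.69, then 11.92 and 11.83, at 0.21 ± 0.13. Both genes had groups apart at the probe set used. A dimmer Slbp probe set gave 0.43, and another, below the floor on each array, -0.079. Chaf1b, of the CAF-1 histone chaperone, was at -0.078 ± 0.13 and overlapped.

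**Figure D2:**
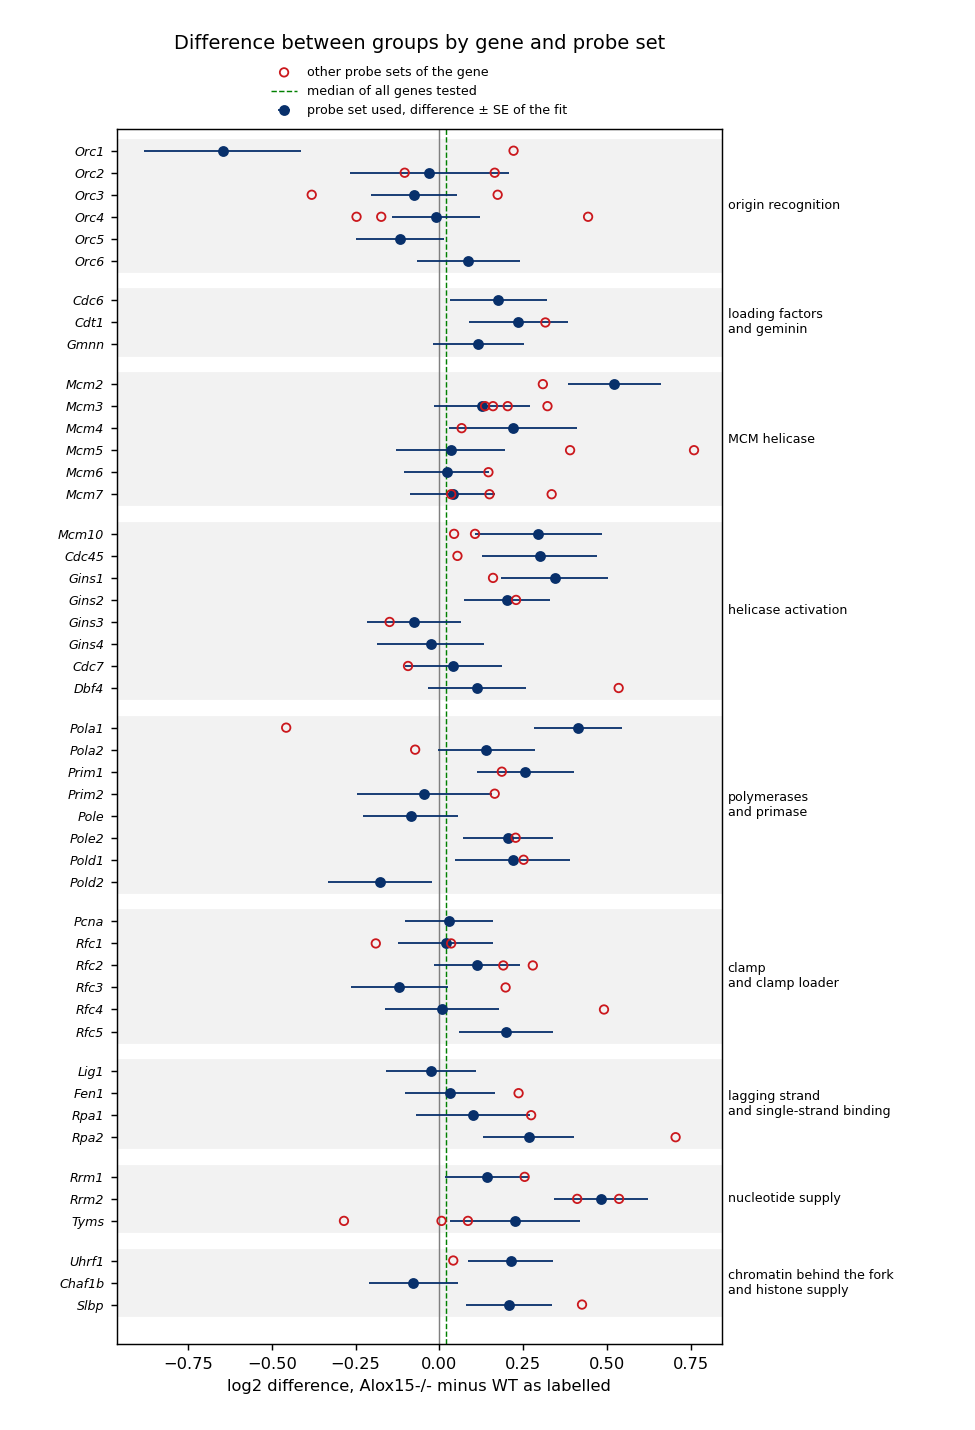
Log2 difference between the groups (horizontal axis) for each of the 47 genes (vertical axis, by role). Filled points are the probe set used with the SE of the fit, open circles are the gene's other probe sets above the bacterial controls, and the dashed line is the median of all genes tested, 0.019. The open circles of Orc1, Mcm5, Rfc4 and Rpa2 lie far to the right of the filled points, and that of Pola1 lies far to the left.

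Set side by side, the 17 licensing genes (Mcm, Orc and Gins) had a median difference of 0.034, with 10 above 0 and groups apart and higher in 4 and lower in 3 (23.5% and 17.6%, beside 21.4% and 17.1% of all genes). The 14 polymerase and clamp genes had 0.071, with 10 above 0 and 6 apart and higher (42.9%). The 3 nucleotide genes had 0.23, with 3 above 0 and 2 apart and higher, and the remaining 13 had 0.12, with 11 above 0. The class called licensing was set by gene family and differs from the licensing step described above. It takes in Mcm10 and the Gins genes, which act after loading, whereas Cdc6, Cdt1 and Gmnn are among the remaining 13. Within the licensing class the families split: 7 of 7 Mcm genes were above 0, with a median of 0.13, and 1 of 6 Orc genes, with a median of -0.053. The Orc median was -0.0025 without Alox15-/- replicate 1, -0.025 without WT replicate 1, -0.080 without WT replicate 2 and -0.11 without Alox15-/- replicate 2. It was -0.21 with the median of each gene's probe sets and 0.17 with the dimmest probe sets above the floor. Differences between classes or families were not tested. The licensing median was 0.059 without WT replicate 1, -0.0075 without WT replicate 2, 0.098 without Alox15-/- replicate 1 and -0.029 without Alox15-/- replicate 2. The nucleotide median was 0.47 without WT replicate 1 and 0.15 without WT replicate 2, and the polymerase and clamp median was 0.13 without Alox15-/- replicate 2.

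**Figure D3:**
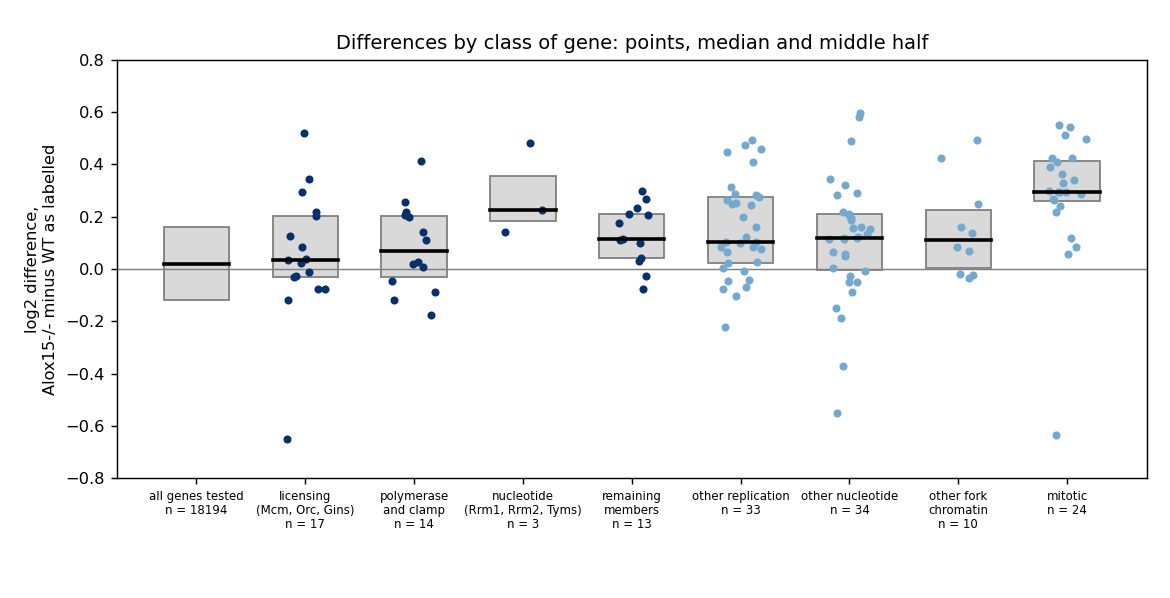
Log2 difference between the groups (vertical axis) by class of gene (horizontal axis); dark points are the 47 genes, light points are other listed genes, the bar is the median and the box the interquartile range. For all genes tested only the bar and box are drawn; the classes of the 47 genes have medians of 0.034 to 0.23, and mitotic genes 0.30.

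Other genes of the pathway were taken from lists written from textbook knowledge. Of 33 further replication genes, 26 were above 0, with a median of 0.11. At an unadjusted p under 0.05, 3 were higher and 0 lower (9.09% and 0%, against 4.20% and 3.57% of all genes tested). The 3 were Ticrr, which helps to load Cdc45, at 0.50, and Chtf18 and Chtf8, of an alternative clamp loader, at 0.48 and 0.46. Of 34 measured nucleotide genes out of 36 listed, 25 were above 0, with a median of 0.12. At that p 3 were higher (8.82%) and 1 lower (2.94%). Tk1, the S phase thymidine kinase, stood at 8.82 and 8.80, then 9.41 and 9.37. Its groups were apart by more than their spread, at 0.58 ± 0.13 (limma adjusted p = 0.503). Dck, which salvages deoxycytidine, was at 0.49 ± 0.14, Impdh1, of guanine nucleotide synthesis, at 0.60 ± 0.20, and Uckl1, a uridine kinase family gene, at -0.37 ± 0.14. Of 10 measured genes of chromatin at the fork out of 12 listed, 7 were above 0. At that p 2 were higher (20%) and 0 lower: Hells, a chromatin remodeller, at 0.49 ± 0.13, and Asf1b, a histone chaperone, at 0.43 ± 0.13. None of these genes passed the adjusted threshold. These small counts varied: 0 of the further replication genes and 0 of the chromatin genes were higher at that p without Alox15-/- replicate 2, 1 of the replication genes without Alox15-/- replicate 1, 1 of the chromatin genes without either WT array, and 1 of the nucleotide genes without WT replicate 2. With a mean-dependent prior variance, 5 of the replication and 4 of the chromatin genes were higher at that p. The count of lower nucleotide genes was 0 with the replicate number as a block. It was 2 with the mean and 3 with the median of each gene's probe sets, and it also fell when some arrays were left out.

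Genes of mitosis were listed as a second readout of cycling cells, and Top2a was also among the further replication genes. Of 24 measured out of 25 listed, 23 were above 0 and the groups were apart and higher for 18 (75%, against 21.4% of all genes). The median was 0.30, and its difference from the replication genes was not tested. At an unadjusted p under 0.05, 7 were higher and 1 was lower (29.2% and 4.17%, against 4.20% and 3.57% of all genes). The 7 became 4 with the dimmest probe set of each gene above the floor and 5 with the replicate number as a block. It became 10 with the mean of each gene's probe sets and 11 with a mean-dependent prior variance. It also varied in both directions when 1 array was left out. Among the 7 were Cenpe and Bub1, of chromosome attachment and its checkpoint, at 0.51 and 0.43, and Aurkb and Anln, of cytokinesis, at 0.55 and 0.50. The lower gene was Mki67, the usual marker of cycling cells. Mki67 stood at 12.38 and 12.50, then 11.82 and 11.80, a difference of -0.63 ± 0.13 (limma adjusted p = 0.503), against the sign of the other 23.

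Markers of other cell types differed between the same groups. All 10 measured of 13 listed granulocyte-monocyte progenitor genes were above 0, with a median of 0.58, led by F13a1 at 1.76 and Ctsg at 1.42. Their summed level on a linear scale was 8734 and 8955 in WT, then 12221 and 12817, and consists mostly of Mpo, at 0.36. All 10 measured of 11 listed mature neutrophil genes were above 0, with sums of 728 and 1522 in WT, then 2870 and 2201. These sums consist mostly of S100a9 and S100a8, at 1.46 and 1.64. Of the 10 genes, Mmp8 was under the bacterial floor on each array and Lcn2 above it on 2. Of 13 measured of 14 listed stem cell genes, 9 were below 0, led by Hlf at -0.77, with sums of 16993 and 16758 in WT, then 14479 and 14174. This list was not limited to genes of long-term stem cells. It and its sums take in Cd34, at 0.064, and Flt3, at -0.034. Of 9 measured of 12 listed erythroid genes, 6 were below 0. Their sums, 9585 and 9710, then 8319 and 8557, consist mostly of Car2, at -0.21, while Klf1, an erythroid transcription factor, had the largest difference of the list, at 0.87. The Gapdh control probe sets at the 3′ and 5′ ends of the transcript differed by 2.37 and 2.39 in WT, then 2.14 and 2.17. For Actb the same difference, 3′ minus 5′, was -0.23 and -0.19 in WT, then -0.13 and -0.28, with the groups overlapping. The part of these in the differences of the replication genes was not tested.

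The order of the arrays was not the same for each set. Over the 47 replication genes the median deviation from the mean of the 4 arrays was lowest in WT replicate 2, at -0.074, and -0.025 in WT replicate 1, against 0.018 and 0.069 in the pair labelled Alox15-/-. For the MCM ring WT replicate 2 was at -0.17 and WT replicate 1 at 0.031, above Alox15-/- replicate 1 at 0.0089. For the mitotic genes the lowest was WT replicate 1, at -0.23, with WT replicate 2 at -0.044. Neutrophil genes were likewise lowest in WT replicate 1, at -0.72, with WT replicate 2 at -0.010.

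**Figure D4:**
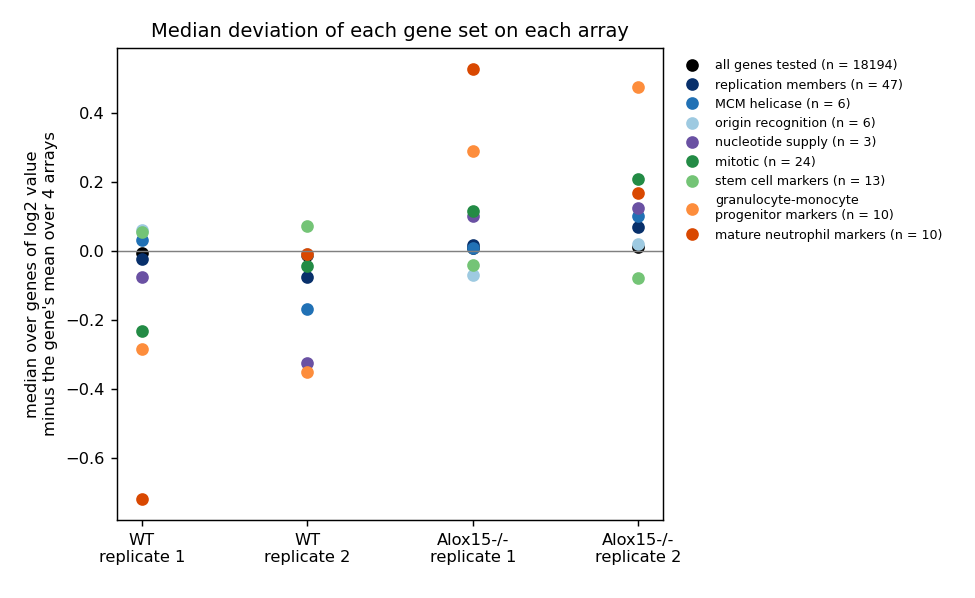
Each point is the median over the genes of a set of the log2 value on an array minus the gene's mean over the 4 arrays (vertical axis), for each array (horizontal axis). The 47 replication genes range from -0.074 to 0.069, a narrower range than mitotic genes (-0.23 to 0.21) or mature neutrophil genes (-0.72 to 0.53).

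The difference of a gene varied with the probe set that read it. The 47 genes had 106 probe sets, 37 genes had several, and 12 of these had probe sets of both signs. For the 36 genes with several probe sets above the bacterial controls on all arrays, the brightest had a median difference of 0.13 and the median of the others 0.18. The dimmer probe sets had the larger absolute difference in 25 of 36 (69.4%), against 53.4% of 6212 genes with such probe sets in the whole table. With the dimmest such probe set of each gene, an alternative chosen after seeing the data, the median over the 47 was 0.17, beside 0.034 over all genes, and 24 of the 47 were apart and higher, against 23.3% of all genes. In that setting Orc1 was at 0.22 and Pola1 at -0.46, while Mcm5, Rfc4 and Rpa2 were at 0.76, 0.49 and 0.71.

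**Figure D5:**
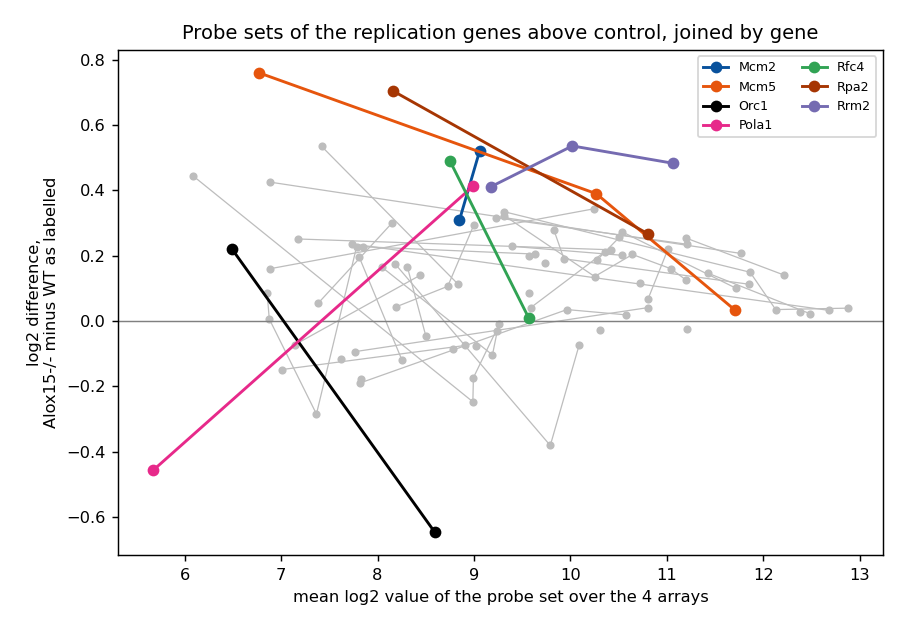
Log2 difference between the groups (vertical axis) against the mean log2 value over the 4 arrays (horizontal axis) for the 99 probe sets of the 47 genes above the bacterial floor on each array, joined by gene. Orc1, Mcm5, Rpa2 and Rfc4 slope down from dim to bright probe sets, Pola1 slopes up, and the 3 probe sets of Rrm2 lie together between 0.41 and 0.54.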

How the data were processed

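Expression was measured on 4 arrays, 2 per genotype, grouped by sample title. The deposited values are log2 signals per probe set, made by the authors with Affymetrix Expression Console 1.1 and RMA, per the submitters' processing notes, which name no genome build (not given in the sources used here). RMA subtracts background, quantile-normalizes and summarises probe sets, which compresses differences at very low signal. Per the labels' protocols, targets came from a whole-transcript sense labelling kit, while the probe set names are those of an array made for antisense targets; the labels do not settle which applies.

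Of 45101 probe sets, 34958 had 1 symbol in the platform annotation, 932 several and 9211 none. The probe set with the highest mean represented each of 18194 genes. Groups were compared with limma 3.58.1 in R 4.3.3 (lmFit, eBayes, no block, two-sided, Benjamini-Hochberg over all genes, threshold 0.05), after a test on simulated data. With 2 arrays a group an exact permutation test cannot go below p = 0.333, and the number of arrays limits the precision. Members, gene lists and rules were chosen with earlier results of these data known. Array values were to be printed for members at unadjusted p under 0.05, the 10 largest positive and 5 most negative differences, Pcna, Mcm2 to Mcm7, Rrm1, Rrm2, Tyms and members whose probe sets differ in sign. Of other lists, up to 5 genes at that p with groups apart could be named. Protein sequences were not used here. Alternatives covered normalization, filters, prior variance, probe sets, a replicate block and each array left out. Intervals on motif shares are Clopper-Pearson. The labels name no pairing by replicate number, so the main fit used none. Deviations of same-numbered arrays from their group means correlated at -0.021 over all genes. Such a value cannot show whether those arrays were prepared together. Figures used matplotlib 3.10.9.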

Additional observations from a re-analysis of the deposited data

How the results depend on the processing

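The alternatives were another normalization, filters on dim genes, the prior variance, the probe sets taken, a replicate block and leaving out each array; taking the dimmest probe set of each gene above the controls was chosen after seeing the data. No member passed the threshold under any of these, and the lowest adjusted p of a member was 0.207 with a mean-dependent prior variance. Over all genes that prior gave 22 calls, the dimmest probe sets 2 (Fam107b and Xaf1) and leaving out any 1 array 0, and without moderation the 1 call was Rac2, not Alox15 (named after their values were seen). With the replicate block the median over the members was 0.11 and the count over all genes 1; it changed no count of members. Outside the member list, at an unadjusted p under 0.05, the block took the higher mitotic genes from 7 to 5. It took the lower nucleotide genes at that p from 1 to 0, and all genes from 1413 to 1325. Over all genes, both directions together, that count was 1579 with the mean-dependent prior and 1205 without moderation. The all-gene count also varied in both directions when 1 array was left out. The part of these shifts in the counts of members below was not tested.

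Members higher at an unadjusted p under 0.05 numbered 8 with the mean-dependent prior, 6 without moderation and 0 to 3 without 1 array. Those lower numbered 0 without moderation and with the mean, the median or the dimmest of a gene's probe sets. Over all genes, both directions together, the count was 1459 with the mean and 1413 with the median. With the dimmest it was 1140 of 13023. Members apart and lower numbered 5 to 12, and apart and higher 22 to 28, without 1 array, where 30.04 to 33.4% of all genes were apart and lower and 35.3 to 39.7% apart and higher. The median over all members was 0.17 with the dimmest probe sets and 0.059 to 0.14 without 1 array. The licensing median was 0.165 with the dimmest probe sets; the polymerase and clamp median was 0.12, 0.10 and 0.18 with the mean, median and dimmest probe sets and 0.061 to 0.13 without 1 array; the nucleotide median was 0.15 to 0.47 without 1 array.

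Signs turned with the mean of a gene's probe sets for Orc2 (0.010), Orc4 (0.0031), Cdc7 (-0.026), Pola1 (-0.022), Prim2 (0.050), Rfc1 (-0.045) and Rfc3 (0.039). With the median of probe sets they turned for Cdc7 (-0.026), Pola1 (-0.022), Pola2 (-0.073), Prim2 (0.165), Rfc3 (0.039) and Tyms (-0.048). With the dimmest probe sets they turned for Orc1 (0.22), Orc2 (0.165), Orc3 (0.17), Orc4 (0.44), Cdc7 (-0.094), Pola1 (-0.46), Pola2 (-0.073), Prim2 (0.165), Rfc1 (-0.19) and Rfc3 (0.20). Without 1 array, differences that changed sign ran from -0.36 to 0.30 for Orc2, -0.060 to 0.040 for Orc4, -0.029 to 0.20 for Orc6, -0.12 to 0.19 for Mcm5, -0.015 to 0.059 for Mcm6, -0.17 to 0.016 for Gins3, -0.16 to 0.10 for Gins4, -0.063 to 0.15 for Cdc7, -0.010 to 0.24 for Dbf4, -0.19 to 0.018 for Pole, -0.30 to 0.21 for Prim2, -0.031 to 0.089 for Pcna, -0.083 to 0.12 for Rfc1, -0.14 to 0.15 for Rfc4, -0.10 to 0.053 for Lig1, -0.048 to 0.11 for Fen1, -0.066 to 0.27 for Rpa1 and -0.015 to 0.47 for Tyms.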
